A study of Homo sapiens with 8 samples.

Results

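The genes described here encode the mitochondrial protein import machinery and the SLC25 carriers. They were the protein-coding genes of GENCODE release 44 whose symbols start with TIMM, TOMM or SLC25A and a number, 74 of 20015 genes, of which 26 belong to the import machinery and 48 to the carriers. A gene was called bound when any transcript had a ChIP-Seq peak in its promoter window, which began 1000 bp before the transcription start site (TSS) and ended 500 bp after it. ChIP-Seq sequences the DNA that comes down with an antibody against a chromatin protein, and a peak is a region with more reads than an input library made without antibody. All libraries came from U2OS cells, a human osteosarcoma line, that over-expressed PHF20 or PHF20L1 with a 3xHA tag and were sorted for GFP before library preparation. For N-3xHA PHF20 there were 2 ChIP libraries and 1 input. For PHF20L1 there were 3 ChIP libraries (1 with N-3xHA and 2 with C-3xHA PHF20L1) and 2 inputs. The tagged proteins were expressed ectopically, so that the peaks describe over-expressed protein in this line. The data used were the final peak lists, with 4147 peaks for PHF20 and 723 for PHF20L1, which combine the replicates and give positions only. No spread between replicates could therefore be computed, and a gene without a peak is a gene where none was called at the authors' thresholds.

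PHF20 and PHF20L1 are homologous readers of methylated proteins that associate with the nonspecific lethal (NSL) complex, in which KAT8 acetylates histone H4 and which is known to act at promoters of housekeeping genes. Most mitochondrial proteins are made in the cytosol. The TOM complex of the outer membrane takes them in, the TIM23 translocase passes them through or into the inner membrane, and small TIM chaperones hand hydrophobic proteins to the TIM22 translocase. The SLC25 carriers are among the substrates of the TIM22 route and move nucleotides, phosphate, amino acids and cofactors across the inner membrane.

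A PHF20 peak was found at 16 of the 26 import genes and at 10 of the 48 carriers, beside 20.7% of all protein-coding genes (4148 of 20015). The bound import genes were TOMM5, TOMM6, TOMM20, TOMM20L, TOMM22, TOMM40, TOMM40L, TIMM9, TIMM10, TIMM10B, TIMM21, TIMM23, TIMM23B, TIMM23B-AGAP6, TIMM29 and TIMM44. The bound carriers were SLC25A4, SLC25A12, SLC25A16, SLC25A24, SLC25A25, SLC25A26, SLC25A32, SLC25A38, SLC25A46 and SLC25A53. PHF20L1 peaks were found at TOMM6, TIMM9, SLC25A12, SLC25A38 and SLC25A53. Each of these genes also had a PHF20 peak, as the paper reports for most PHF20L1 regions. The other 48 genes had no peak of either protein at a promoter.

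**Figure D1:**
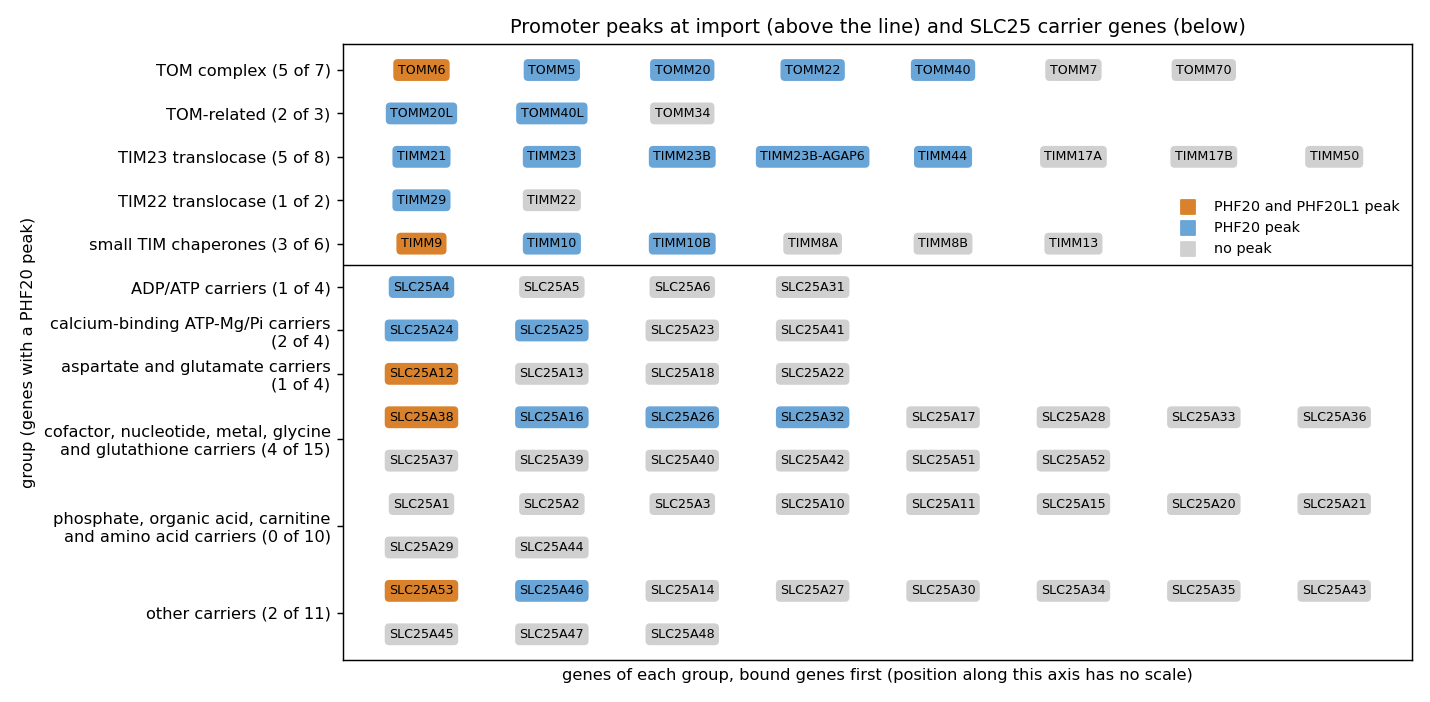
Import genes and SLC25 carriers by functional group, coloured by promoter peak (orange, PHF20 and PHF20L1; blue, PHF20; grey, none). Bound genes make up 16 of 26 import genes above the line and 10 of 48 carriers below it, of which 47 are drawn. Among all protein-coding genes 20.7% had a PHF20 peak.

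Promoter sequences of 8 of these genes are shown first, because the ETS and NRF1 words occur at bound and unbound members. Each is the 180 bases before the TSS of the canonical transcript and the 20 bases from it on, read from hg38 on the strand of the gene, 5′ to 3′. Capitals mark words searched on either strand, namely ACTTCCGG (a site of ETS factors, whose reverse complement is CCGGAAGT), CACGTGAC (an E-box), GCGCATGC (a site of NRF1) and TCAAGGTCA (a site of the ERR receptors). The NRF1 word overlaps its own reverse complement, as in TIMM8B, where both form 1 run of capitals. Only exact words are marked. Shorter or varied matches, such as cacgtg in TIMM10 and SLC25A46, stay in lower case. The first 6 promoters lie under PHF20 peaks: TOMM20 (chr1:235128818-235129017, minus strand), TOMM6 (chr6:41787514-41787713, plus), TIMM10 (chr11:57530735-57530934, minus), SLC25A46 (chr5:110738827-110739026, plus), SLC25A38 (chr3:39383190-39383389, plus) and TIMM9 (chr14:58427512-58427711, minus).
TOMM20: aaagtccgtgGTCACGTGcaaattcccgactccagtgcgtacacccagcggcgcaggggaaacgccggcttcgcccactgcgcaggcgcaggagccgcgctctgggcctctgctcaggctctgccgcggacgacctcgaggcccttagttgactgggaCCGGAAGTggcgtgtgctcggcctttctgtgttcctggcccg
TOMM6: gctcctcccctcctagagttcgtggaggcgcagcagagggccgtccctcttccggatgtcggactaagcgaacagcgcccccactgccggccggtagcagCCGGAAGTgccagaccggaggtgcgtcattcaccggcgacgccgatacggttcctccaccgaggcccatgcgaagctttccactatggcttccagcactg
TIMM10: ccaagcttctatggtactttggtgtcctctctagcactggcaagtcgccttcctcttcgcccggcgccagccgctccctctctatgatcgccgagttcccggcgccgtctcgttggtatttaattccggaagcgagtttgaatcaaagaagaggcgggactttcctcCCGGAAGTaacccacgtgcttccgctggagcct
SLC25A46: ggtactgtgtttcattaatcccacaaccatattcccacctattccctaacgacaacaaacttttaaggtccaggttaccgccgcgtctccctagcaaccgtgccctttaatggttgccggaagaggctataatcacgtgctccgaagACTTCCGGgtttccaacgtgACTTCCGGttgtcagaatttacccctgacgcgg
SLC25A38: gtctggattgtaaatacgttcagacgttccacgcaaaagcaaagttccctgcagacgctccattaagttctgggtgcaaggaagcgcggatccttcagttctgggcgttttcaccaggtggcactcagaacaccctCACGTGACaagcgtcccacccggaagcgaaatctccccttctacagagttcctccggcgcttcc
TIMM9: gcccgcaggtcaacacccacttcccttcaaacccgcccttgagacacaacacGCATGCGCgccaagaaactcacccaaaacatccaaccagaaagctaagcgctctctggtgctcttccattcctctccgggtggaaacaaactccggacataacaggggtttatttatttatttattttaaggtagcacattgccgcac
The next promoters hold the ETS word, and that of TIMM8B also the NRF1 and ERR words, but have no peak of either protein. They belong to TIMM8B (chr11:112086737-112086936, minus), which encodes a small TIM, and TOMM70 (chr3:100401070-100401269, minus), which encodes a TOM receptor.
TIMM8B: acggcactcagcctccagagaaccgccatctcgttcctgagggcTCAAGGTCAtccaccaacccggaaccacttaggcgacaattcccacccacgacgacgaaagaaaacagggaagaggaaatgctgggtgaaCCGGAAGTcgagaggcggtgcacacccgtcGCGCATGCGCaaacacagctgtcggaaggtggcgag
TOMM70: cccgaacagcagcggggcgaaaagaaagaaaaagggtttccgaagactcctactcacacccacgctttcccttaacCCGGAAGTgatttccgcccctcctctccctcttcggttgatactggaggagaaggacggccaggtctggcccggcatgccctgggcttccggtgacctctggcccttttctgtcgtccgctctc

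The bound share for PHF20 was 61.5% of import genes (Wilson 95% interval 42.5% to 77.6%) and 20.8% of carriers (11.7% to 34.3%). Among all protein-coding genes it was 20.7% (4148 of 20015). The import genes thus exceeded the carriers by 40.7 percentage points (Newcombe 95% interval 17.4 to 59.1), with an odds ratio of 6.08 and p = 0.000786 (Fisher's exact test on genes, two-sided, 1 of 2 tests made, 1 for each protein). The share of carriers lay near that of all genes. Genes were the units of this test, so that the intervals and p-values cover counting error only, and genes that share a promoter or arose by duplication are not independent. With the canonical TSS alone, 16 import genes and 9 carriers were bound, against 19.1% of all protein-coding genes.

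For PHF20L1 the bound share was 7.69% of import genes (2 of 26, Wilson 95% interval 2.14% to 24.1%) and 6.25% of carriers (3 of 48, 2.15% to 16.8%). The share among all protein-coding genes was 3.83% (766 of 20015). A difference between import genes and carriers was not detectable with so few bound genes, at 1.44 percentage points (Newcombe 95% interval −10.5 to 18.4, odds ratio 1.25, p = 1 by the same Fisher's exact test). The interval leaves room for differences in either direction, and its sign turned when all members at shared promoters were left out. Whether the contrast between import genes and carriers differed between the proteins was not tested.

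**Figure D2:**
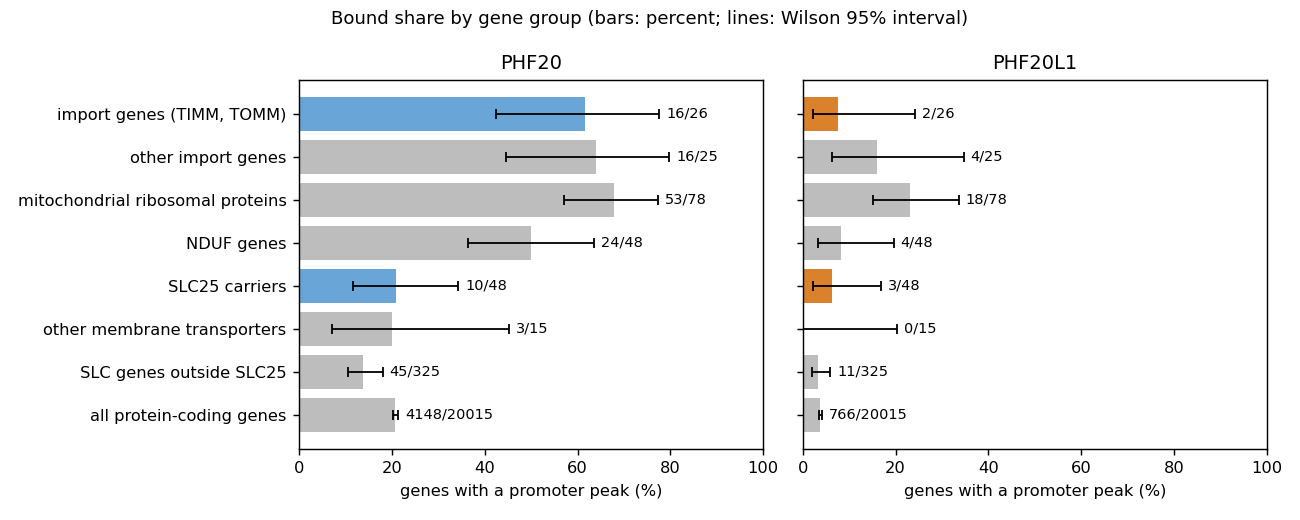
Percent of genes with a promoter peak of PHF20 (left) or PHF20L1 (right) in each gene group, with Wilson 95% intervals and counts beside the bars. For PHF20, import genes stand at 61.5% and SLC25 carriers at 20.8%, beside 20.7% of all protein-coding genes.

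Within the import machinery, PHF20 peaks covered 5 of 7 genes of the TOM complex. This share was 71.4% (Wilson interval 35.9% to 91.8%), beside 20.7% of all protein-coding genes. The bound genes were TOMM40, the channel, TOMM20 and TOMM22, receptors for presequences, and TOMM5 and TOMM6, small subunits. The PHF20 peak at TOMM22 (chr22:38681417-38682496) was 1080 bp wide and its centre lay 1 bp upstream of the TSS. Of its bases, 540 were outside the gene, 173 in noncoding exon, 236 in coding sequence and 131 in intron. TOMM20 had a peak of 968 bp (chr1:235128296-235129263) centred 58 bp downstream of its canonical TSS. TOMM40 was the only member with 2 PHF20 peaks in its windows, of 629 bp and 585 bp, with the first centred 704 bp upstream and the second 159 bp downstream of the canonical TSS. TOMM7, a small subunit, and TOMM70, a receptor for carrier precursors, had no peak, and the nearest PHF20 peaks lay 282369 bp and 38523 bp from their TSSs. The TOM subunits thus differed among themselves, with a receptor and a small subunit on the unbound side.

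Of the 8 genes grouped with the TIM23 translocase, 5 had a PHF20 peak. This share was 62.5% (Wilson interval 30.6% to 86.3%), beside 20.7% of all protein-coding genes. The bound genes included TIMM23, the channel-forming subunit, its close relative TIMM23B and the readthrough gene TIMM23B-AGAP6, which was called from the TIMM23B peak. The others were TIMM21, which contacts the TOM complex, and TIMM44, which anchors the import motor. TIMM21 had a peak of 1112 bp (chr18:74147946-74149057), at percentile 87.9 of the widths of PHF20 peaks at coding promoters. The window of FBXO15 also overlapped this peak. TIMM44 had a narrower peak of 578 bp, centred 162 bp downstream of its canonical TSS. TIMM17A and TIMM17B, alternative subunits of the same translocase, and TIMM50, its receptor in the intermembrane space, had none, with the nearest PHF20 peak at 20490, 95525 and 88711 bp.

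TIMM23 and TIMM23B are near copies on chromosome 10, and both had wide PHF20 peaks, of 1106 bp (chr10:45971948-45973053) and 1184 bp (chr10:49941600-49942783). TIMM23B-AGAP6 starts at the TIMM23B promoter and was called from the same peak, as was PARG on the other side. With coding transcripts alone TIMM23B-AGAP6 was not called bound, which left 15 of 26 import genes. From 500 bases before to 500 bases after the TSS, 977 of 991 aligned bases were equal (98.6%). The promoters are given with capitals at the bases that differ, chr10:45972309-45972508 for TIMM23 and chr10:49941879-49942078 for TIMM23B, both on the plus strand.
TIMM23: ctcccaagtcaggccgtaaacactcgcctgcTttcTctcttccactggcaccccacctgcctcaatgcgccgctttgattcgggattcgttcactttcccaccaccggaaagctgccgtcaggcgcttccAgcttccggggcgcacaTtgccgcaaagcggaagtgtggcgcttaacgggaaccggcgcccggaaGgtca
TIMM23B: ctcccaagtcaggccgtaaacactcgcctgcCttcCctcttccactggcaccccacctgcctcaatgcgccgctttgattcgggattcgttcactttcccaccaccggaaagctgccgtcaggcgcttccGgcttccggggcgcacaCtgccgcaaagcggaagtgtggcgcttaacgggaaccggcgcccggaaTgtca
Only 52.5% of the 50-base words in the promoter window of TIMM23 and 53% of those of TIMM23B occur once in hg38. The authors kept reads with a unique position, so that the copies could be told apart only by reads across such words. Without TIMM23B-AGAP6, which was left out after its shared promoter had been seen, 15 of 25 import genes were bound and the difference from carriers was 39.2 percentage points (Fisher's exact test, p = 0.00152).

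Among the small TIM chaperones, the partners TIMM9 and TIMM10 and their relative TIMM10B, which docks them on the TIM22 translocase, had PHF20 peaks. TIMM8A, TIMM8B and TIMM13 had none. This was 3 of 6 genes (50%, Wilson interval 18.8% to 81.2%), beside 20.7% of all protein-coding genes. TIMM8A and TIMM13 form the other small TIM complex. The peaks were 1124 bp at TIMM9 (chr14:58426732-58427855), 833 bp at TIMM10 (chr11:57530150-57530982) and 817 bp at TIMM10B (chr11:6481121-6481937). The nearest PHF20 peaks to the unbound genes lay 59441 bp from TIMM8A, 11869 bp from TIMM8B and 190279 bp from TIMM13. The partners TIMM9 and TIMM10 were thus both bound and the partners TIMM8A and TIMM13 both unbound, which is given without a test. With 6 genes no pattern by complex can be read from this. In the TIM22 translocase, TIMM29 had a peak of 654 bp and TIMM22, the channel, had none within 214413 bp.

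The TOM-related genes TOMM20L and TOMM40L, paralogs of TOMM20 and TOMM40, both had PHF20 peaks, of 584 bp and 406 bp. The latter was the narrowest at an import gene. TOMM34, a cytosolic cochaperone, had no peak within 74353 bp. In the pairs of import paralogs, TOMM20 with TOMM20L, TOMM40 with TOMM40L, TIMM10 with TIMM10B and TIMM23 with TIMM23B were alike in having a peak. TIMM8A with TIMM8B and TIMM17A with TIMM17B were alike in having none. TIMM23 and TIMM23B have nearly equal promoters, so that their calls are not independent. Carrier paralogs were mixed. Some differed, as SLC25A4 from SLC25A5 and SLC25A31, SLC25A12 from SLC25A13, and SLC25A24 from SLC25A23. Other carrier pairs had no peak at either gene.

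Among the carriers, bound genes were spread over most groups. SLC25A4 (ANT1) was the bound gene among the 4 ADP/ATP carriers, with a peak of 510 bp (chr4:185142655-185143164) that lay wholly upstream of its TSS. SLC25A5, SLC25A6 and SLC25A31, which encode the other ADP/ATP carriers, had no peak. The bound share of this group was 25% (Wilson interval 4.56% to 69.9%), beside 20.7% of all protein-coding genes. SLC25A6 lies in the pseudoautosomal region, where the copies on X and Y are the same sequence, and 0% of the 50-base words in its window occur once in hg38. In that region 0 of 16 protein-coding genes were bound by PHF20 (a count that allows up to 18.8%), so that the lack of a peak at SLC25A6 cannot be told apart from a lack of unique reads. Leaving SLC25A6 out gave 10 of 47 carriers (21.3%). On chromosome X, 1 of 7 members was bound (SLC25A53), against 5.01% of all protein-coding genes on this chromosome (43 of 859).

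Of the 4 calcium-binding ATP-Mg/phosphate carriers, SLC25A24 and SLC25A25 had a PHF20 peak and SLC25A23 and SLC25A41 had none. This share was 50% (Wilson interval 15% to 85%), beside 20.7% of all protein-coding genes. The SLC25A24 peak of 579 bp spanned an alternative TSS and was centred 420 bp upstream of the canonical TSS. The SLC25A25 peak of 574 bp (chr9:128066797-128067370) overlapped its window by 170 bp only and also overlapped a window of NAIF1. It was the bound member closest to the edge of the window, and its call was lost with narrower windows or with peak centres. Beyond the edge, the nearest unbound members were SLC25A1, the citrate carrier, at 6344 bp and SLC25A10, the dicarboxylate carrier, at 8255 bp. No member therefore lay just outside the window, and widening it to 2500 bp on each side added none.

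SLC25A12 (aralar), a calcium-regulated aspartate/glutamate carrier, was bound at a distant promoter. Its PHF20 peak (chr2:171999784-172001177) was 1394 bp wide, the widest of any member, and was centred 106236 bp upstream of the canonical TSS. It met the rule through a transcript that starts beside METAP1D, whose own window overlapped the peak too. With the canonical TSS or with coding transcripts alone SLC25A12 was not bound by either protein. Its paralog SLC25A13 (citrin) and the glutamate carriers SLC25A18 and SLC25A22 had no peak. PHF20 thus bound 1 of 4 aspartate and glutamate carriers (25%, Wilson interval 4.56% to 69.9%), beside 20.7% of all protein-coding genes.

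In the group that carries cofactors, nucleotides, metals, glycine and glutathione, 4 of 15 genes had a PHF20 peak. This share was 26.7% (Wilson interval 10.9% to 52%), near the 20.7% of all protein-coding genes. SLC25A26 brings S-adenosylmethionine into the matrix and had a peak of 999 bp (chr3:66220835-66221833). SLC25A38 carries glycine for heme synthesis and had a peak of 1250 bp (chr3:39382982-39384231). SLC25A16 had a peak of 551 bp. SLC25A32, which carries folate and FAD, had the narrowest PHF20 peak of any member, 245 bp, which lay downstream of the canonical TSS and also in a window of DCAF13. The iron carriers SLC25A28 and SLC25A37, the pyrimidine nucleotide carriers SLC25A33 and SLC25A36, SLC25A39 and SLC25A40, which serve glutathione import, and the NAD carriers SLC25A51 and SLC25A52 were paralog pairs with no peak at either gene. SLC25A17 and SLC25A42 had no peak either.

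None of the 10 carriers of phosphate, organic acids, carnitine and amino acids had a PHF20 peak, a count that allows a share of up to 30%. These were SLC25A1, SLC25A2, SLC25A3, SLC25A10, SLC25A11, SLC25A15, SLC25A20, SLC25A21, SLC25A29 and SLC25A44. They include SLC25A3, the phosphate carrier needed for ATP synthesis, whose nearest PHF20 peak lay 2650459 bp away. The upper limit is above the share of all genes, so that no depletion can be read from it. Of the 11 other carriers, SLC25A46, an outer-membrane relative linked to mitochondrial fission, had a peak of 1258 bp (chr5:110738561-110739818), and SLC25A53 had a peak of 873 bp (chrX:104156444-104157316). SLC25A14, SLC25A27, SLC25A30, SLC25A34, SLC25A35, SLC25A43, SLC25A45, SLC25A47 and SLC25A48 had none. The bound share of these 11 carriers was 18.2% (Wilson interval 5.14% to 47.7%), near the 20.7% of all protein-coding genes.

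The paper reports that PHF20 also bound most PHF20L1 regions over the whole genome. The 5 PHF20L1 peaks at members likewise all lay inside the PHF20 peaks of the same genes. They were 410 bp wide at TOMM6 (chr6:41787437-41787846), 387 bp at TIMM9 (chr14:58427272-58427658), 298 bp at SLC25A12 (chr2:171999920-172000217), 263 bp at SLC25A53 (chrX:104156754-104157016) and 254 bp at SLC25A38 (chr3:39383274-39383527). The PHF20L1 peaks of the import genes were wider than the median of 323 bp for PHF20L1 peaks at coding promoters, and those of the 3 carriers were narrower. The centre of the TOMM6 peak lay 53 bp upstream of the canonical TSS. Centres lay 66 bp downstream of it at TIMM9, 124 bp downstream at SLC25A53 and 30 bp downstream at SLC25A38. At TOMM6 the PHF20 peak of 806 bp (chr6:41787243-41788048) also overlapped a window of FRS3, and at TIMM9 that of 1124 bp also overlapped a window of KIAA0586. PHF20 peaks were 806 to 1394 bp wide at the 5 members with a PHF20L1 peak (median 1124 bp) and 245 to 1258 bp at the other 21 (median 654 bp), so that the ranges overlapped.

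**Figure D3:**
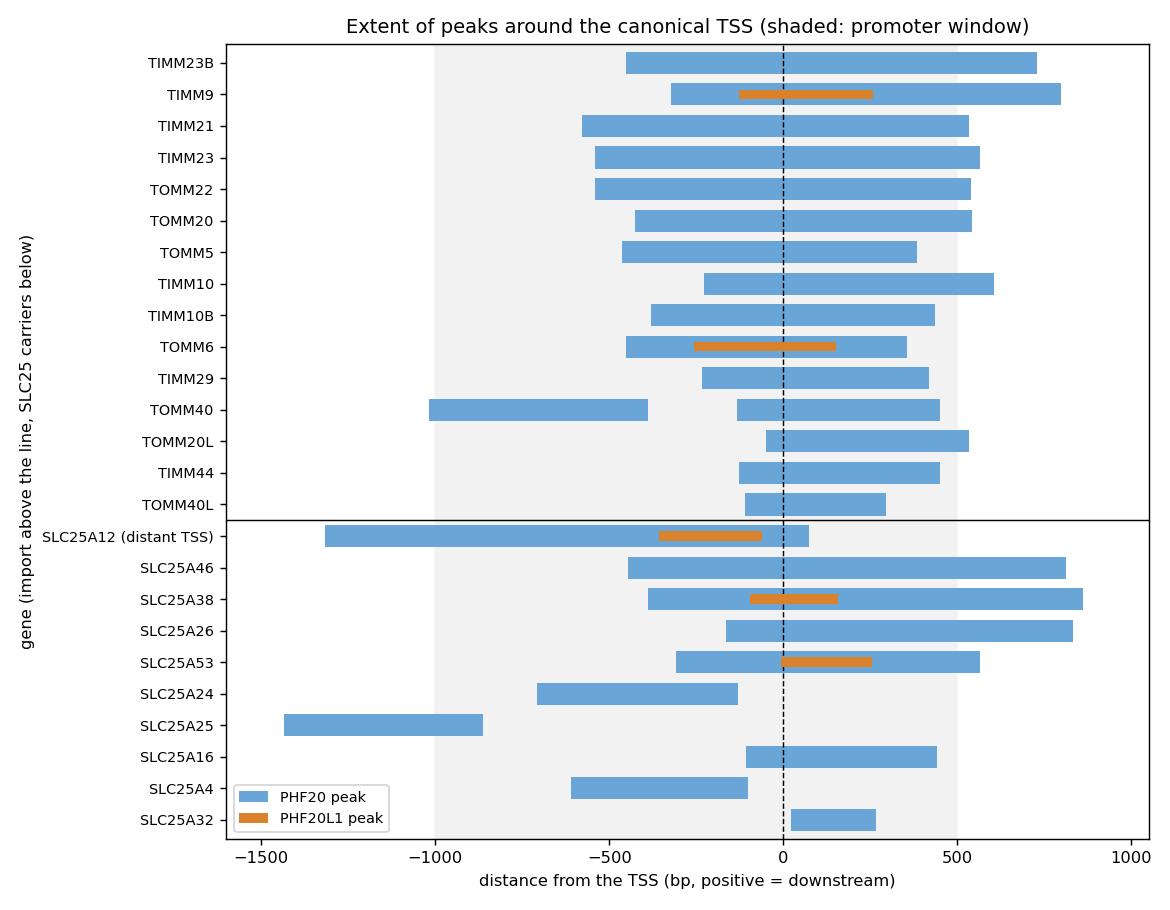
Extent of PHF20 peaks (blue) and PHF20L1 peaks (orange) relative to the canonical TSS in bp, or for SLC25A12 to the distant TSS beside METAP1D, with the promoter window shaded. TIMM23B-AGAP6 has the peak of TIMM23B and is not drawn. All 16 bound import genes have a PHF20 peak across the canonical TSS and 5 of 10 bound carriers do, beside 64.4% of all PHF20-bound coding genes.

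The place of the PHF20 peaks relative to the TSS differed among the members. A peak spanned the canonical TSS at 16 of 16 bound import genes and at 5 of 10 bound carriers, beside 64.4% of all PHF20-bound coding genes (2673 of 4148). Counting any annotated TSS, 8 of 10 bound carriers had a spanning peak, beside 79.7% of all PHF20-bound coding genes, and those of SLC25A4 and SLC25A25 spanned none. Peak centres lay at a median of 69 bp from the nearest TSS for import genes, 128 bp for carriers and 120 bp for all PHF20-bound coding genes. The number of TSSs per gene had a median of 3 for import genes, 6.5 for carriers and 5 for all protein-coding genes. No test was made on these positions.

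Peak widths of the groups overlapped broadly. The 16 PHF20 peaks of import genes had a median width of 825 bp (406 to 1184 bp) and the 10 of carriers 726 bp (245 to 1394 bp), beside 635 bp for 3562 PHF20 peaks at coding promoters (interquartile range 416 to 920 bp). The widest at import genes were those of TIMM23B, TIMM9, TIMM21, TIMM23 and TOMM22, and at carriers those of SLC25A12, SLC25A46, SLC25A38, SLC25A26 and SLC25A53. When only peaks that reached the median width of the whole PHF20 list were counted, 13 of 26 import genes and 5 of 48 carriers were bound, against 12.1% of all genes. The genes that dropped out were TIMM44, TOMM20L, TOMM40L, SLC25A4, SLC25A16, SLC25A24, SLC25A25 and SLC25A32.

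Peaks shared with the promoter of a neighbour were common. At 8 of the 16 bound import genes and 4 of the 10 bound carriers the PHF20 peak also overlapped the window of another protein-coding gene, as it did at 38.2% of all PHF20-bound coding genes (1585 of 4148). Besides those named above, the neighbours were ARFIP2 and ENSG00000283977 at TIMM10B, ENSG00000256966 at TOMM5, YIPF2 at TIMM29 and TMEM232 at SLC25A46. Such a peak cannot be assigned to either gene. A TSS of another coding gene lay within 1000 bp of the canonical TSS at 38.5% of import genes, 14.6% of carriers and 18.7% of all protein-coding genes. After all members with such a neighbour were left out, a choice made with the data seen, 9 of 16 import genes (56.2%) and 7 of 41 carriers (17.1%) were bound, against 16.9% of all such genes (difference 39.2 percentage points, Fisher's exact test, p = 0.0069).

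The import genes and carriers were alike in CpG content. The ratio of observed to expected CpG in the promoter window had a median of 0.747 for import genes and 0.739 for carriers, above the 0.67 of all protein-coding genes. A CpG-rich stretch, 500 bp with at least 55% GC and a ratio of at least 0.75, was present at 92.3% of import genes, 87.5% of carriers and 65.9% of all genes. Among genes with such a stretch, 14 of 24 import genes (58.3%) and 10 of 42 carriers (23.8%) had a PHF20 peak, against 28.9% of all protein-coding genes with one (difference 34.5 percentage points, Fisher's exact test, p = 0.0077). Of the 8 members without such a stretch, TIMM9 and TOMM40L had a PHF20 peak, and SLC25A18, SLC25A34, SLC25A41, SLC25A45, SLC25A47 and SLC25A52 had none. Among all genes of this kind 4.93% were bound.

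**Figure D4:**
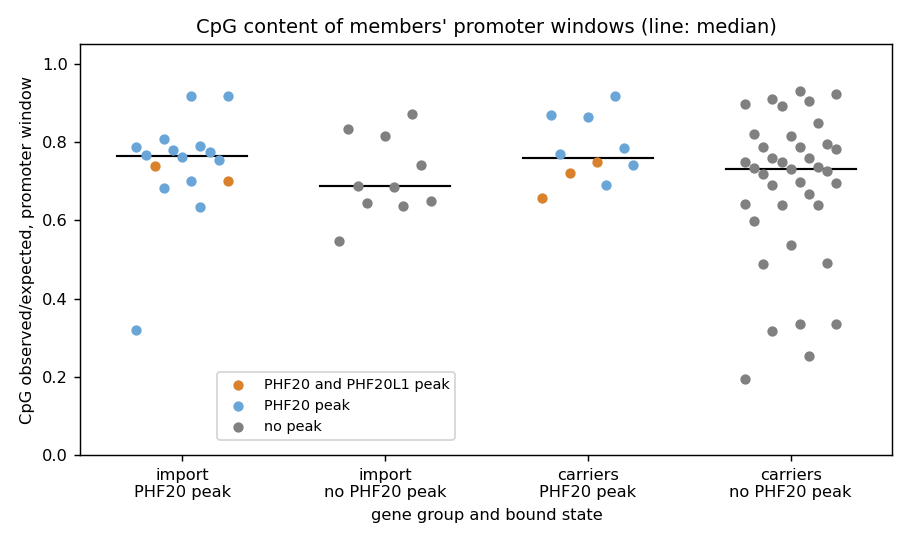
Observed to expected CpG ratio in the promoter window of each member, by gene group and PHF20 peak, with medians as lines. Bound and unbound genes overlap in both groups, and the lowest bound gene is TOMM40L at 0.321.

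Words in the 300 bases around the canonical TSS, from 250 before to 50 after it, were counted as a description. Only exact matches were counted, so that a promoter without a word may still hold a varied site. The ETS word ACTTCCGG was present on either strand at 7 of 26 import genes (26.9%), 4 of 48 carriers (8.33%) and 6.14% of all protein-coding genes. Among all PHF20-bound coding genes 16.5% held it, and 3.43% of those without a PHF20 peak. The ETS and E-box words had been shown by earlier results of these data. Their contrasts between bound and unbound genes are thus not independent of how they were picked. The bound members with the word were TIMM10, TIMM10B, TIMM29, TOMM20, TOMM6, SLC25A24, SLC25A26 and SLC25A46. The unbound members with it were TIMM8B, TOMM70 and SLC25A17. In SLC25A46, printed above, the word occurs 2 times, starting 33 and 13 bases before the TSS. In TOMM20 it starts 22 bases before the TSS, in TIMM10 13, in TOMM6 80, in TIMM8B 46 and in TOMM70 104, so that bound and unbound members overlapped in its position. The word was thus neither present at all bound members nor absent from all unbound ones.

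The E-box word CACGTGAC was counted at 1 of 26 import genes (3.85%, TOMM20), 7 of 48 carriers (14.6%) and 3.46% of all genes. The carriers were SLC25A26, SLC25A32 and SLC25A38, which had PHF20 peaks, and SLC25A13, SLC25A31, SLC25A33 and SLC25A51, which had none. This is 3 of 10 bound and 4 of 38 unbound carriers, beside 6.56% of all PHF20-bound coding genes and 2.65% of those without a PHF20 peak. The NRF1 word GCGCATGC was found at 4 import genes (15.4%), TIMM8B, TIMM9, TIMM10B and TOMM7, at 0 of 48 carriers and at 4.28% of all genes. Of these, TIMM9 and TIMM10B had a PHF20 peak, and over all coding genes the word was present at 5.95% of those with a PHF20 peak and 3.84% of those without. CCAAT, the site of NFY, was present at 8 import genes (30.8%), 23 carriers (47.9%) and 36% of all genes. Among the carriers it was held by 2 of 10 bound and 21 of 38 unbound genes, and among import genes by 4 of 16 and 4 of 10. Over all protein-coding genes it was present at 34.2% of those with a PHF20 peak and 36.5% of those without. GGGGCGGGG, a site of SP and KLF factors, was present at 2 import genes (7.69%), 14 carriers (29.2%) and 24.5% of all genes. It was held by 4 of 10 bound and 10 of 38 unbound carriers, and by 1 of 16 and 1 of 10 import genes. For all protein-coding genes the shares were 23.9% of those with a PHF20 peak and 24.6% of those without. The words for YY1 (AAGATGGC) and CREB (TGACGTCA) were present at 2 and 0 import genes and at 2 and 3 carriers, beside 4.05% and 2.69% of all genes. For all PHF20-bound coding genes these shares were 8.51% and 3.98%, and for those without a PHF20 peak 2.88% and 2.36%. Among the carriers the YY1 word was held by 0 of 10 bound and 2 of 38 unbound genes, and the CREB word by 0 of 10 and 3 of 38. Among import genes the YY1 word was held by 1 of 16 bound and 1 of 10 unbound genes. The word for ZNF143 (ACTACAAT) was present at none of the members and 0.669% of all genes, and the ERR word at TIMM8B alone among the members and 0.185% of all genes.

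Other genes of mitochondrial import and transport were counted by the same rule. Of 25 import genes with other names, 16 had a PHF20 peak (64%, Wilson 95% interval 44.5% to 79.8%), against 20.7% of all protein-coding genes. These were the outer-membrane assembly genes SAMM50, MTX1, MTX2 and MTX3, CHCHD4 and GFER of the intermembrane-space oxidation pathway, AGK of the TIM22 translocase, ROMO1 and DNAJC19, the chaperone genes HSPD1, HSPE1 and GRPEL2, the peptidase genes PMPCB, IMMP2L and XPNPEP3, and TIMMDC1. TIMMDC1 is known as an assembly factor of respiratory complex I rather than an import subunit, and without it, a choice made with the data seen, 15 of 24 genes were bound (62.5%). AIFM1, DNAJC15, GRPEL1, HSPA9, IMMP1L, MIPEP, OXA1L, PAM16 and PMPCA had none. PHF20L1 peaks were found at 4 of the 25, AGK, MTX1, MTX2 and SAMM50 (16%, 6.4% to 34.7%), against 3.83% of all protein-coding genes. Of 15 other membrane transporter genes, which include the uncoupling proteins UCP1, UCP2 and UCP3 of the SLC25 family, 3 had a PHF20 peak (20%, 7.05% to 45.2%), namely SFXN1, VDAC1 and VDAC2, a share near that of all genes, and 0 had a PHF20L1 peak, which allows up to 20%. Solute carrier genes outside SLC25 were bound by PHF20 in 13.8% (45 of 325) and by PHF20L1 in 3.38%. Genes with NDUF symbols, named for respiratory complex I and not limited here to its subunits, stood at 50% (24 of 48) for PHF20 and 8.33% for PHF20L1. Genes of mitochondrial ribosomal proteins stood at 67.9% (53 of 78) and 23.1%. None of these shares was tested against those of import genes or carriers.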

How the data were processed

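Peaks from HA ChIP-Seq in U2OS cells were used. Per the study's methods and the submitters' processing notes, the authors aligned reads with Bowtie 1.1.2 to hg38, kept 1 copy of reads at unique positions, used MACS2 2.2.7.1 with the inputs to call peaks, took out blacklisted regions and made 1 list per protein from the replicates; a failed PHF20 replicate had been removed by them. The deposited values are peak positions in bp, without score, height or read count, so that the depth behind a peak is unknown here. Starts were converted to count from 1. The number of other columns of per-sample values was 0.

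GENCODE release 44 gave the genes (the authors used an earlier release), with the mitochondrial chromosome left out and pseudoautosomal copies counted as 1 gene. Shares have Wilson 95% intervals, differences Newcombe intervals, and a count of 0 the share that 3 genes would give. Import genes and carriers were compared with two-sided Fisher's exact tests at a threshold of 0.05. Words of 50 bases were counted over hg38 on both strands without alternate contigs. Python 3.11.15, scipy 1.17.1, statsmodels 0.14.6, pysam 0.24.0, Biopython 1.88, samtools 1.23.1 and matplotlib 3.10.9 were used. Overlaps, word searches and uniqueness counts were tested on simulated data. Sequences were read from hg38.

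The members, gene lists and words were chosen with earlier results of these data known. Details are given for members with a PHF20L1 peak, import genes without a PHF20 peak, the 5 import genes and 5 carriers with the widest PHF20 peaks, members nearest the window edge and paralogs; other bound members were described after their values were seen. The result for 1 member, counted in its group, is not reported here. RNA-Seq and KANSL3 data were not analysed here.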

Additional observations from a re-analysis of the deposited data

How the results depend on the processing

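The excess of import genes over carriers in PHF20-bound share kept its direction and stayed past the threshold in 12 alternatives, from 34.5 to 42.8 percentage points (Fisher's exact test, p from 0.000316 to 0.0077). Leaving out members bound at a promoter shared with a neighbour gave 33.7 percentage points, but it removes bound genes only and is no check of the difference. Alternatives were peak centres, windows from 500 bp before to 100 bp after the TSS and of 2500 bp on each side, canonical TSSs, coding transcripts, peaks of at least 300 bp or of median width or more, an overlap of at least 100 bp, windows with at least 50% unique 50-base words, CpG-rich promoters, and the choices of members given above. The cut at 50% unique words removed SLC25A6 alone. It kept TIMM23, TIMM23B and TIMM23B-AGAP6, at 52.5%, 53% and 52.8%, and is no check of those calls. The PHF20-bound share of carriers moved to 10.4% with peaks of median width or more. For PHF20L1 the difference turned to −2.98 percentage points at CpG-rich promoters and −1.07 without all members at a shared promoter (Fisher's exact test, p = 1 in each), and the cause was not tested. It was −0.255 without members bound at a shared promoter, which again removes bound genes only and is no check. The PHF20L1-bound share of carriers was 0% both with peaks of at least 300 bp and with those of median width or more, since the 3 peaks are narrower. Each list was made from the replicates together, so that no replicate could be left out. No paired analysis was possible because the peak lists carry no values per replicate. Depth per peak is not known, and genes without a peak may be bound below the threshold of calling.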
